A study of Homo sapiens with 12 samples.

Results

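The genes described here are 30 target genes of p53, the transcription factor that answers DNA damage and other stress, in HCT116, a human colon carcinoma cell line. They were taken from a named list of p53 pathway genes and matched by Ensembl identifier to 30 of the 58051 genes in the count tables. Among them 29 had enough exon counts to be tested. SPATA18, a gene of mitochondrial quality control, had between 0 and 4 exon counts in each library and was not tested.

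p53 is held at a low level by MDM2, a ubiquitin ligase that p53 itself switches on. When that hold is released, p53 binds paired decamer sites in its target genes and raises their transcription. The targets stop the cell cycle, prime or carry out cell death, repair DNA, adjust metabolism and feed back on p53.

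RNA was sequenced from cells transfected with small interfering RNA (siRNA), double-stranded RNA used to deplete a matching transcript, against PFDN2 (siPFDN2), against PFDN5 (siPFDN5) or with a control siRNA (siControl). PFDN2 and PFDN5 are subunits of prefoldin, which hands newly made actin and tubulin to the chaperonin TRiC. All 6 groups were starved of serum for 48 h from 24 h after siRNA. With each siRNA, 1 group was taken before serum was returned and 1 group 90 min after it, with 2 libraries per group. One siRNA sequence was used per gene, and the labels do not say whether the 2 libraries of a group came from separate cultures, so the p-values measure the spread between these samples, which may be technical. In bulk RNA, more cells of a kind and more RNA per cell cannot be told apart.

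A p53 site was sought in the members' promoters, to show the kind of sequence through which p53 acts on its targets. Promoter windows ran from 250 bases before to 50 bases after each start listed by RefSeq (GRCh38.p14), and 23 of the 30 members had such a window. The p53 consensus is a pair of half-sites of 10 bases, each with a fixed C and a fixed G around its centre, and here with at most 1 base between them. It reads alike on both strands. A match of at least 18 of the 20 positions was found for 4 of the 23 members with a window and for 0.674% of all 27305 genes with one, which is 0.533% of their 35116 windows. The 4 matches are printed 5′ to 3′ on the plus strand with the site in capitals.
AEN (chr15:88621306-88621325, in an annotated exon): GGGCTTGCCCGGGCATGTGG
DDB2 (chr11:47214979-47214999, in an annotated exon): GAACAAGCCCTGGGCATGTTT
FAS (chr10:88991309-88991328, in an annotated exon): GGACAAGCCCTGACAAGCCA
MDM2 (chr12:68808918-68808947, inside the gene and in no annotated exon): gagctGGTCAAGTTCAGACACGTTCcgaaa
The DDB2 site matched all 20 positions and the others matched 18. No match in the other windows says only that these letters are not there.

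The targets of the siRNAs were read first, as exon CPM (counts over exons after scaling every library to the same total, TMM-scaled). PFDN5 stood at 94.1 and 84.3 CPM in siControl and at 52.2 and 55.5 CPM in siPFDN5 before serum (a log2 fold change of -0.71, SE 0.07, adjusted p 0.000541). After serum it stood at 87.3 and 90.1 CPM in siControl and at 78.0 and 79.6 CPM in those labelled siPFDN5 (-0.16, SE 0.07, adjusted p 0.125). The lowering of PFDN5 was therefore not called there, and every direction below from the libraries labelled siPFDN5 after serum carries that reservation. Over 16 alternatives to that fit this log2 fold change ran from -0.26 to -0.07, and 14 of them gave the same outcome. In siPFDN2 before serum, PFDN2 had 6.52 and 6.66 CPM, against 11.1 and 11.1 CPM in siControl (-0.75, SE 0.16, adjusted p 0.359 with all 12 libraries and 0.0381 without siPFDN2 before serum replicate 2). After serum it had 7.96 and 9.42 CPM, against 20.3 and 17.02 CPM (-1.10, SE 0.16, adjusted p 0.906, and 0.000328 without that library). Both siPFDN2 libraries were the low ones at each time. PFDN5 was not called in siPFDN2, at -0.02 before and 0.16 after serum with all 12 libraries. PFDN2 was higher in siPFDN5 before serum, at 24.2 and 22.8 CPM (1.10, SE 0.12, adjusted p 0.000848), and in those labelled siPFDN5 after it, at 24.9 and 31.6 CPM (0.61, SE 0.12, adjusted p 0.00357). Exon counts came to between 46158398 and 114454288 per library, and the members together took 0.188% to 0.323% of them. Of the 5 epithelial markers, all were detected, with KRT8 at 839 to 1375 CPM. Of 6 markers of other cells, PTPRC, COL1A2 and ALB were highest at 0.0544, 0.0275 and 0.0681 CPM, PECAM1 at 0.145 and PDGFRB at 0.354, while COL1A1 stood at 4.70 to 19.4 CPM. After serum, in those labelled siPFDN5, 3 of 5 epithelial markers were higher than in siControl and 1 was lower (KRT18 0.50, CDH1 -0.44), and their part in the results was not tested.

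One library stood apart. In siPFDN2 before serum replicate 2, the deviation of genes from the mean followed their GC content with a Spearman's rho of 0.841, against -0.529 to 0.0463 in the other 11 libraries. The SD of the log2 difference between the replicates of that group was 0.716, against 0.106 to 0.183 in the other groups. Comparisons of siPFDN5 with siControl were therefore fitted on their own 8 libraries. Comparisons with siPFDN2 are given with and without that library.

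Levels of the members per kilobase of exon in siControl before serum ran from 3.41 CPM for TIGAR to 83.2 CPM for CCNG1, with SPATA18 aside. CDKN1A followed CCNG1 at 66.0 CPM per kilobase, and TNFRSF10B and RRM2B came next at 26.2 each. The members lie on 13 chromosomes and their GC content had a median of 49.8%, against 48.5% for the genes tested. No tested member had fewer than 561 exon counts in any library.

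**Figure D1:**
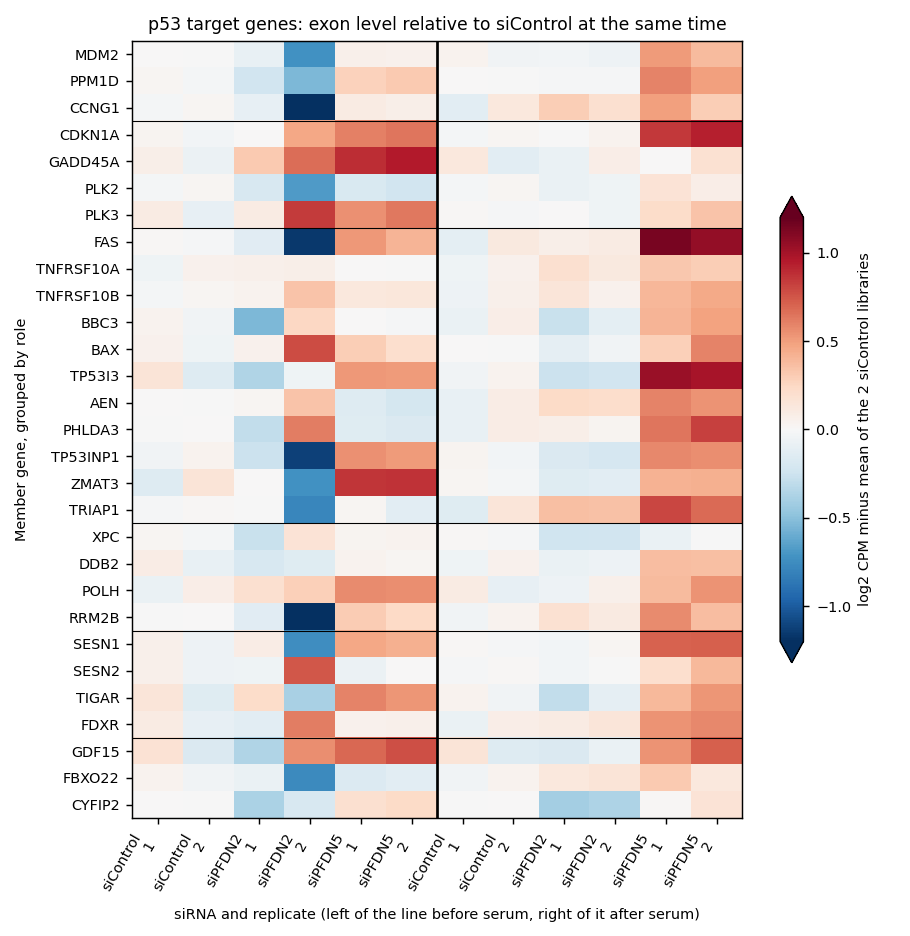
Exon level of the 29 tested members (rows, grouped by role) in each of the 12 libraries (columns), as log2 CPM minus the mean of the 2 siControl libraries at the same time. The colour scale ends at its arrows, so stronger values share the end colours. The siPFDN5 columns are red for most members, and siPFDN2 before serum replicate 2 departs from its own replicate in both directions.

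The first comparison asked how the members stood in starved cells under siPFDN5. Before serum, 13 of the 29 tested members were higher in siPFDN5 than in siControl and 0 were lower. Of all 24256 genes tested, 4.17% were called higher and 4.66% lower, and 6.35% were called higher among genes with a mean log2 CPM of at least 3. The median log2 fold change was 0.23 over the members and 0.01 over all genes tested. Both siPFDN5 libraries lay above both siControl libraries for 19 members and below them for 4, where 28.8% of all genes tested lay above and 31.8% below. The growth arrest genes CDKN1A, GADD45A and PLK3 and the RNA-binding p53 target ZMAT3 were among those with the largest differences.

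Among the genes that stop growth, 3 of 4 rose. CDKN1A, on chromosome 6 (36676460 to 36687339, GRCh38, plus strand, overlapping no other gene), encodes p21, the inhibitor of cyclin-dependent kinases. It stood at 206 and 197 CPM in siControl and at 305 and 313 CPM in siPFDN5, which is a log2 fold change of 0.64 (SE 0.07, adjusted p 0.000541). GADD45A, a stress sensor that acts in growth arrest and DNA repair, stood at 15.7 and 14.1 CPM in siControl and at 27.5 and 28.7 CPM in siPFDN5 (0.94, SE 0.10, adjusted p 0.000663). The groups did not overlap for either gene. PLK3, a stress-activated polo-like kinase, was higher by 0.61 (SE 0.08, adjusted p 0.00187). PLK2, a related kinase, had a log2 fold change of -0.19 with an adjusted p of 0.118.

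Among 11 genes of death and survival, 4 rose before serum. ZMAT3 stood at 46.4 and 57.3 CPM in siControl and at 93.1 and 93.9 CPM in siPFDN5 (0.87, SE 0.09, adjusted p 0.000541). FAS, a death receptor of the cell surface, lies on chromosome 10 (88990582 to 89015785, plus strand) and overlaps ACTA2. It stood at 23.1 and 22.6 CPM in siControl and at 32.7 and 30.4 CPM in siPFDN5 (0.48, SE 0.08, adjusted p 0.00446). In both genes the siPFDN5 libraries were the high ones, with no overlap. TP53I3, an oxidoreductase linked to oxidative stress, was higher by 0.53 (SE 0.09, adjusted p 0.00503), and TP53INP1, a stress protein of autophagy and cell death, by 0.55 (SE 0.07, adjusted p 0.00131). The other 7 members of this group were not called. BBC3 (PUMA), which promotes mitochondrial cell death, had a log2 fold change of 0.02, and BAX, which permeabilises the outer mitochondrial membrane, of 0.27.

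In the feedback group, PPM1D, a phosphatase that switches p53 signalling off, rose by 0.31 (SE 0.07, adjusted p 0.0174). MDM2 was not called, at 324 and 324 CPM in siControl and 338 and 335 CPM in siPFDN5 (0.08, SE 0.08, adjusted p 0.571), nor was CCNG1 (cyclin G1) at 0.10. Of 4 repair genes, POLH, a DNA polymerase that copies past damage, was higher by 0.58 (SE 0.09, adjusted p 0.00378) and RRM2B, a ribonucleotide reductase subunit, by 0.29. The damage recognition genes XPC and DDB2 were not called, at 0.06 and 0.05. Of 4 metabolic genes, TIGAR, which lowers glycolytic flux, was higher by 0.58 (SE 0.10, adjusted p 0.00442) and SESN1, a stress-induced inhibitor of mTORC1 signalling, by 0.46 (SE 0.08, adjusted p 0.00371). SESN2 and FDXR were not called.

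GDF15, a secreted stress cytokine, stood at 54.0 and 42.6 CPM in siControl and at 77.1 and 82.2 CPM in siPFDN5 before serum (0.74, SE 0.14, adjusted p 0.013). FBXO22, part of a ubiquitin ligase, and CYFIP2, an actin regulator, were not called. The count of 13 rested on each siPFDN5 library. It was 6 without siPFDN5 before serum replicate 1 and 5 without replicate 2.

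The second comparison was made 90 min after serum. In the libraries labelled siPFDN5, 25 of the 29 tested members were higher than in siControl and 0 were lower. Of all genes tested, 15.8% were called higher and 10.2% lower, and 28.6% were called higher among genes with a mean log2 CPM of at least 3. The median log2 fold change was 0.46 over the members and -0.01 over all genes tested. Both libraries labelled siPFDN5 lay above both siControl libraries for 27 members and below them for 0, where 31.5% of all genes tested lay above and 32.7% below. The largest differences were those of FAS, TP53I3 and CDKN1A.

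All 11 genes of death and survival were higher. FAS stood at 20.2 and 23.6 CPM in siControl and at 48.0 and 45.3 CPM in those labelled siPFDN5, which is a log2 fold change of 1.10 (SE 0.08, adjusted p 3.04e-05). TP53I3 stood at 14.6 and 15.5 CPM in siControl and at 30.8 and 29.8 CPM in siPFDN5 (1.02, SE 0.09, adjusted p 5.22e-05). In both genes the libraries labelled siPFDN5 were the high ones and the groups did not overlap. TRIAP1, a small protein that protects against cell death, was higher by 0.75 (SE 0.09, adjusted p 0.000216), and PHLDA3, which restrains the kinase AKT, by 0.74 (SE 0.09, adjusted p 0.00021). AEN, a nuclease of apoptosis, and TP53INP1 were both higher by 0.58. BAX stood at 0.46, BBC3 at 0.45, the death receptor gene TNFRSF10B at 0.44, ZMAT3 at 0.44 and TNFRSF10A at 0.32.

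Of the growth arrest genes, CDKN1A and PLK3 were higher. CDKN1A stood at 225 and 232 CPM in siControl and at 412 and 435 CPM in those labelled siPFDN5 (0.90, SE 0.07, adjusted p 3.45e-05). Its lowest value there was above every other library of the series. GADD45A was not called after serum, at 61.0 and 51.1 CPM in siControl and 55.9 and 63.4 CPM in siPFDN5 (0.10, SE 0.10, adjusted p 0.461), and its groups overlapped. PLK2 was not called at 0.14.

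All 3 feedback genes were higher after serum. MDM2 stood at 421 and 397 CPM in siControl and at 582 and 531 CPM in those labelled siPFDN5 (0.46, SE 0.08, adjusted p 0.00108). PPM1D was higher by 0.56 (SE 0.07, adjusted p 0.000268) and CCNG1 by 0.40. All 4 metabolic genes were higher, with SESN1 at 0.73 (SE 0.08, adjusted p 0.000133), FDXR, which passes electrons to mitochondrial P450 enzymes, at 0.56 (SE 0.08, adjusted p 0.000428), TIGAR at 0.48 and SESN2 at 0.31. Of the repair genes, RRM2B, POLH and DDB2 were higher by 0.48, 0.47 and 0.38, and XPC was not called at -0.03. GDF15 was higher by 0.63 (SE 0.13, adjusted p 0.00847) and FBXO22 by 0.23, and CYFIP2 was not called at 0.10. Leaving out any 1 of the 8 libraries gave 22 to 25 members called.

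**Figure D2:**
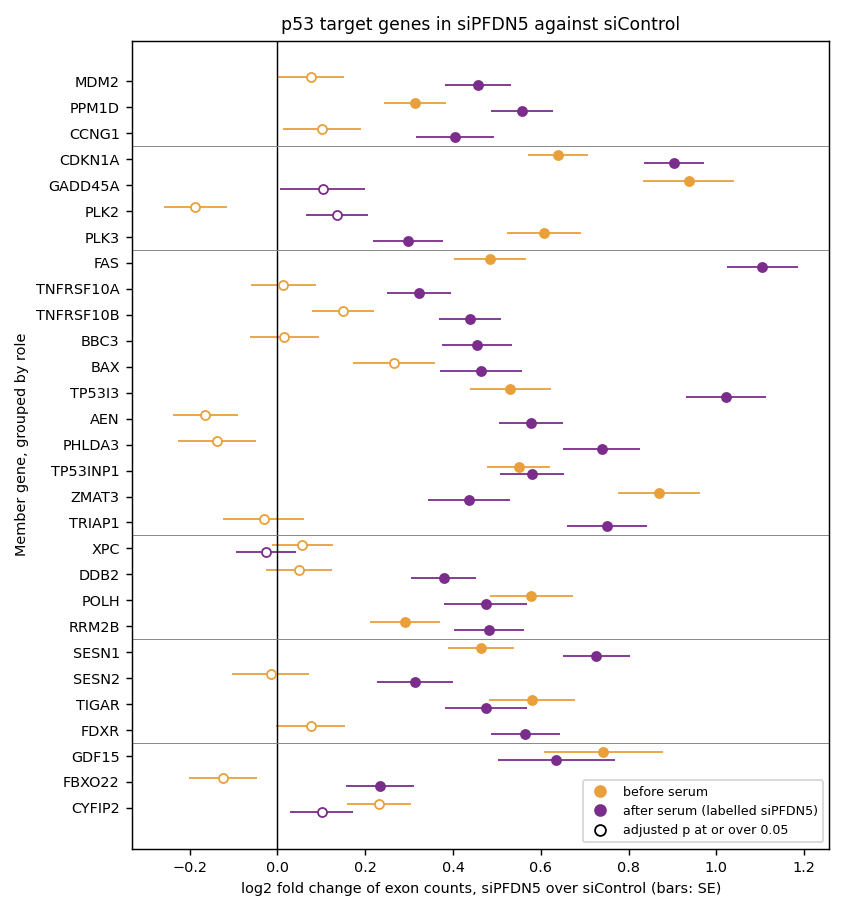
Log2 fold change of exon counts in siPFDN5 over siControl for each tested member, before serum (orange) and after serum (purple, libraries labelled siPFDN5), with the SE as bars and open circles where the adjusted p was at or over 0.05. All filled points lie to the right of 0, 13 before serum and 25 after it.

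Of the called members, 12 were higher at both times, which is 12 of the 13 before serum and 12 of the 25 after it. GADD45A was called before serum only. Another 13 were called after serum only, among them MDM2, BBC3, BAX, PHLDA3 and AEN. The remaining 3 (CYFIP2, PLK2 and XPC) were called at neither time.

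When all 12 libraries shared 1 estimate of the spread, 0 members were called at either time by edgeR's quasi-likelihood test, and 0% of genes before and 0.00402% after serum. At an unadjusted p under 0.05 in that fit, 9 members were higher before serum and 17 after it, and none was lower. The medians of the members were 0.21 and 0.45 there. Without siPFDN2 before serum replicate 2, 13 and 25 members were higher again. The counting carried no strand, and 19 of the 30 members overlap another gene, so their counts can hold its fragments. Among the 10 tested members that overlap none, 4 were higher before serum and 8 after it.

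**Figure D3:**
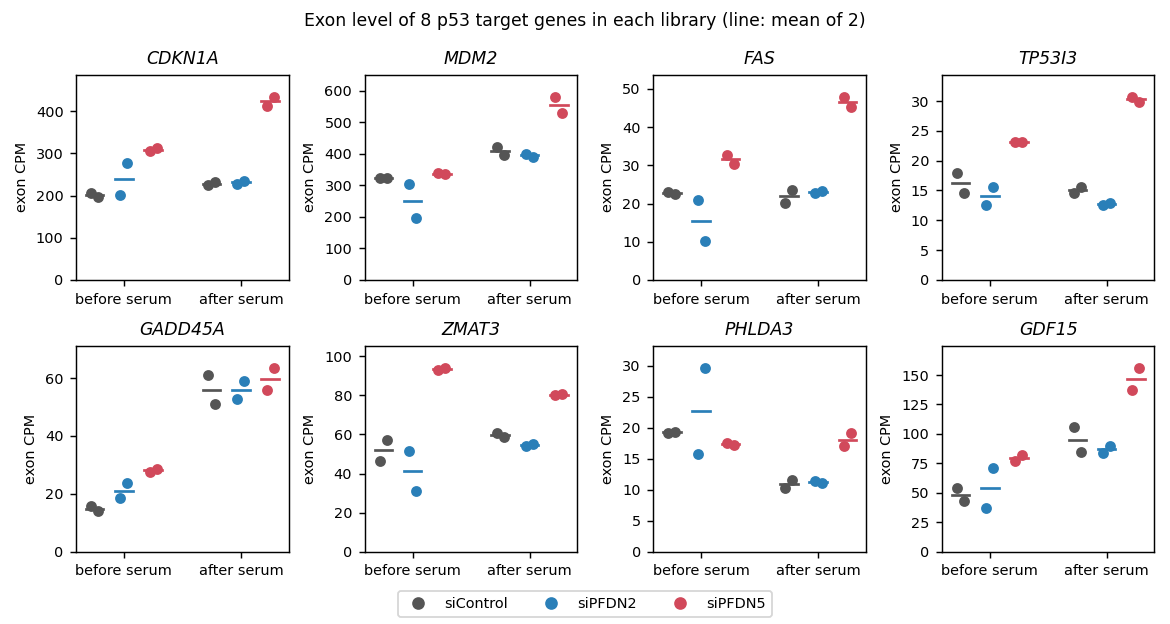
Exon CPM of 8 members in each library (points) with the mean of the 2 libraries of a group (line), by siRNA, before and after serum. CDKN1A, MDM2, FAS, TP53I3 and GDF15 are highest in the libraries labelled siPFDN5 after serum. GADD45A rose with serum in every siRNA, and PHLDA3 fell with serum in siControl and in siPFDN2.

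The regulators of p53 did not move as one group. Of 21 regulators tested, 1 was higher before serum (USP7, a deubiquitinase of MDM2 and p53, at 0.38). Once serum was added, in those labelled siPFDN5, 5 were higher and 6 lower. Of all genes tested, 4.17% were called higher and 4.66% lower before serum, and 15.8% and 10.2% after it. Among genes with a mean log2 CPM of at least 3, 6.35% were higher before serum and 28.6% after it. After serum, in those labelled siPFDN5, the ribosomal proteins RPL11 and RPL5, which bind MDM2, were higher by 0.59 and 0.47. CREBBP, a coactivator of p53, was lower there (-0.74). MDM4, which restrains p53 together with MDM2 and was named after its value was seen, was lower there too (log2 fold change -0.37, SE 0.08, adjusted p 0.00595). None of these was called before serum. CREBBP then stood at 57.8 and 60.8 CPM in siControl and at 68.6 and 79.2 CPM in siPFDN5. MDM4 stood at 70.6 and 74.3 CPM in siControl and at 83.8 and 86.3 CPM in siPFDN5 before serum.

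Of 21 other p53 targets tested, 5 were higher and 1 lower before serum, and 13 were higher and 2 lower after it. BTG2, an antiproliferative gene, was higher by 0.53 before serum, and ANKRA2 and TNFRSF10C, a decoy death receptor, by 0.79 each after serum. IGFBP3, which binds insulin-like growth factors, was lower after serum (-1.07). Of 10 cell cycle genes that p53 lowers through p21, 1 was lower before serum (BIRC5, or survivin, at -0.28). Once serum was added, in those labelled siPFDN5, 5 were higher and 0 lower, with CDK1 at 0.61, AURKA at 0.41 and CCNB1 at 0.41. The list's median was -0.12 before serum and 0.26 after it. Of 10 genes of the integrated stress response, a pathway that also raises some of the members, 1 was higher and 2 lower before serum, and 2 were higher and 1 lower after it. The transcription factor gene ATF4 stood at -0.32 before serum and at 0.26 after it. Beside these lists, 4.17% of all genes tested were called higher and 4.66% lower before serum, and 15.8% and 10.2% after it. The part of these lists in the members' changes was not tested.

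Serum itself moved the members both ways. In siControl, 7 of 29 were higher and 7 lower 90 min after serum, where 6.29% of all genes were called higher and 5.05% lower. The growth arrest kinases and GADD45A had the largest rises. PLK2 stood at 81.0 and 83.6 CPM before and at 362 and 371 CPM after serum (2.16, SE 0.07, adjusted p 1.32e-10). GADD45A was higher by 1.91 (SE 0.10, adjusted p 3.7e-08), PLK3 by 1.52 (SE 0.08, adjusted p 2.02e-08) and GDF15 by 0.98. TIGAR, TNFRSF10B and MDM2 were higher by 0.58, 0.45 and 0.34. PHLDA3 stood at 19.2 and 19.3 CPM before and at 10.2 and 11.6 CPM after serum (-0.82, SE 0.09, adjusted p 2.61e-05). SESN1 and BBC3 were lower as well, with log2 fold changes of -0.68 and -0.66. PPM1D, FBXO22, FDXR and SESN2 were lower too, at -0.27 to -0.29. Without siControl before serum replicate 1 the number called was 9, and with all 12 libraries in the fit it was 3.

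From siPFDN5 before serum to the libraries with that label after it, 14 members were higher and 4 lower, where 18.6% of all genes were called higher and 13.8% lower. The 7 members that rose in siControl were all among the 14. The other 7 were AEN, CDKN1A, DDB2, FAS, TNFRSF10A, TP53I3 and TRIAP1. SESN1 and BBC3 were lower in siControl and in siPFDN5, and TP53INP1 and XPC, not called in siControl, were lower in siPFDN5 at -0.20 and -0.23, a difference that was not called. With all 12 libraries in the fit, 6 members were called under siPFDN5.

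The difference between these responses was tested directly. The change with serum was more positive under siPFDN5 than under siControl for 11 members and more negative for 2, where 9.48% of all genes were called on the first side and 6.09% on the second. The median of the members was 0.29, against 0.01 for all genes tested. PHLDA3 had the largest difference, 0.88 (SE 0.12, adjusted p 0.00354): it fell with serum in siControl, and with siPFDN5 its serum change was not called (0.06, SE 0.09). TRIAP1 differed by 0.78 (SE 0.13, adjusted p 0.00689), AEN by 0.74 (SE 0.10, adjusted p 0.00349) and FAS by 0.62 (SE 0.11, adjusted p 0.00839). GADD45A differed the other way, by -0.83 (SE 0.14, adjusted p 0.00814), with the higher level in siPFDN5 before serum and overlapping levels after it. ZMAT3 differed by -0.43 (SE 0.13, adjusted p 0.0418). The count of 13 was 0 with all 12 libraries in the fit, where 5 had an unadjusted p under 0.05. It was 5 and 2 without siPFDN5 before serum replicate 1 and replicate 2, 6 without siControl before serum replicate 1, 5 without the first library labelled siPFDN5 after serum and 7 without siControl after serum replicate 1.

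**Figure D4:**
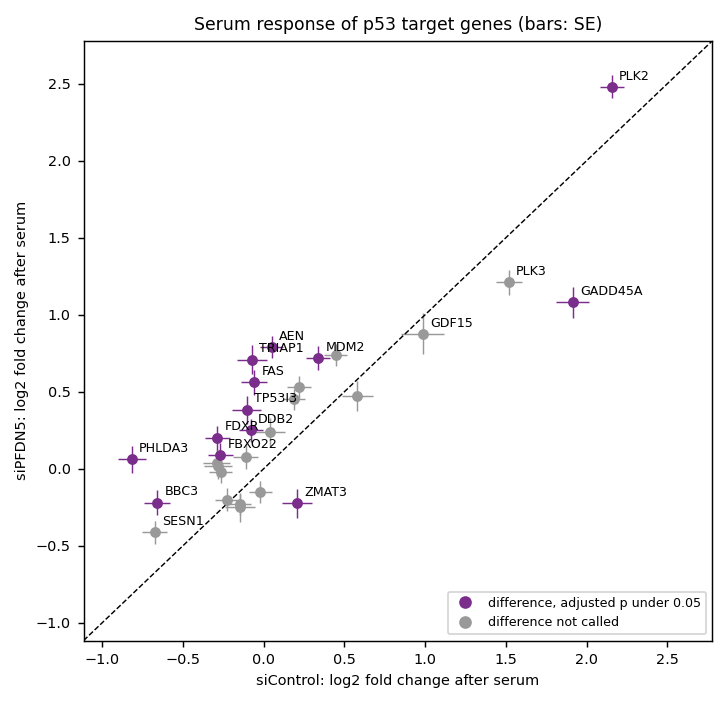
Log2 fold change with serum of each tested member in siControl (horizontal) and in siPFDN5 (vertical, libraries labelled siPFDN5 after serum), with the SE as bars. Purple marks the 13 members whose responses differed. Of these, 11 lie above the dashed line of equal response, and GADD45A and ZMAT3 lie below it.

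Under siPFDN2 few members were called. With all 12 libraries, 0 members passed before serum (0% of genes) and 0 after it (0%) by edgeR's quasi-likelihood test. DESeq2 also called 0 at both times, and 6 members before and 1 after serum had an unadjusted p under 0.05. Without siPFDN2 before serum replicate 2, BBC3 was lower before serum (-0.54, SE 0.11, adjusted p 0.03), where 0.402% of genes were called. That call rests on 1 siPFDN2 library at 15.3 CPM, below both siControl libraries (the lower at 21.7 CPM), and the library left out stood above both, at 26.6 CPM. After serum CYFIP2 was lower (-0.38, SE 0.07, adjusted p 0.00723) and TRIAP1 higher (0.35, SE 0.09, adjusted p 0.0299), where 6.09% of genes were called. The members' median was -0.09 before and -0.01 after serum in that fit.

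Levels of FAS and CDKN1A are given for the siPFDN2 libraries too. For FAS they gave 20.9 and 10.2 CPM before serum, the latter from the library that stood apart, and 22.8 and 23.4 CPM after it, close to siControl at 20.2 and 23.6 CPM. For CDKN1A the siPFDN2 libraries gave 202 and 277 CPM before serum, and 228 and 235 CPM after it. The comparisons of the 2 knockdowns with siControl share the siControl libraries, so the knockdowns were also set against each other.

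In siPFDN5 against siPFDN2 with all 12 libraries, 0 members were called before serum (0.0442% of genes; 14 higher and 1 lower at an unadjusted p under 0.05, and 9 called by DESeq2). After serum 1 was called, TP53I3 at 1.25 (SE 0.16, adjusted p 0.0384; 0.0201% of genes), and DESeq2 called 5. Without siPFDN2 before serum replicate 2, 14 members were higher in siPFDN5 before serum, where 2.19% of genes were called higher. In the libraries labelled siPFDN5 after serum, 23 were higher than in siPFDN2, where 4.94% of genes were called higher. TP53I3 (1.25, SE 0.09, adjusted p 3e-07), FAS (1.02, SE 0.08, adjusted p 6.09e-07) and CDKN1A (0.87, SE 0.07, adjusted p 6.09e-07) had the largest differences after serum in that fit. All 29 tested members had a positive log2 fold change after serum, and for 27 both libraries labelled siPFDN5 lay above both of siPFDN2, as for 28.9% of all genes tested.

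With serum under siPFDN2, PLK2 (2.51, SE 0.16), GADD45A (1.41, SE 0.16) and PLK3 (0.98, SE 0.21) were higher with all 12 libraries, 3 members where 2.53% of genes were called. Without siPFDN2 before serum replicate 2, 6 were higher and 2 lower, where 5.46% of genes were called. The difference from the response of siControl was called for 0 members with 12 libraries (0% of genes, 1 member at an unadjusted p under 0.05, 0 by DESeq2) and for 0 with 11 (0%, 6 members unadjusted).

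Intronic counts, the gene-body count minus the exon count of a gene, are read from transcripts not yet spliced and from anything else that lies in the introns. They took 15% and 17.3% of the siControl libraries before serum and 22.8% and 25.9% of those of siPFDN5. After serum the shares were 20.6% and 16.2% in siControl and 17.2% and 14.8% in the libraries labelled siPFDN5. Intron and exon counts were each TMM-scaled on their own totals, so a change common to most introns is removed. Intronic levels and fold changes below therefore depend on those scaling factors. Before serum, the median log2 fold change of the members in siPFDN5 was 0.23 in exons and 0.23 in introns. Both siPFDN5 libraries lay above both siControl libraries in introns for 15 of 29 members, and for 33.7% of the 16955 genes tested.

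For CDKN1A the introns stood at 18.8 and 10.4 CPM of intron counts in siControl and at 22.1 and 21.3 CPM in siPFDN5 before serum. Its intronic log2 fold change was 0.57 and its exonic one 0.64. ZMAT3 had 1.07 in introns and 0.87 in exons, with introns at 4.34 and 4.44 CPM in siControl and 9.60 and 8.90 CPM in siPFDN5. For both genes the siPFDN5 libraries were the high ones in scaled introns as well. The raw intron counts of CDKN1A overlapped, at 330 and 209 in siControl and 306 and 297 in siPFDN5, in libraries of unlike size. GADD45A had 0.01 in introns and 0.94 in exons (difference -0.87, SE 0.27, adjusted p 0.221). By edgeR's test of intron against exon change, 0 members were called before serum (0% of genes), and 4 had an unadjusted p under 0.05.

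After serum the intronic median of the members in the libraries labelled siPFDN5 was 0.28, beside 0.46 in exons. Introns of 13 of 29 members lay above siControl in both libraries, and those of 28.1% of genes. The intronic change was lower than the exonic one for TNFRSF10A (-0.99, SE 0.24, adjusted p 0.0354) and PPM1D (-0.84, SE 0.20, adjusted p 0.0362), 2 members where 11% of genes were called in either direction. PPM1D introns stood at 30.2 and 22.6 CPM in siControl and at 21.3 and 19.7 CPM in those labelled siPFDN5, while its exons rose. For FAS, introns and exons both pointed up after scaling, by 0.61 and 1.10, and for CDKN1A by 0.83 and 0.90. Raw intron counts of FAS were 102 and 122 in siControl and 80 and 81 in those labelled siPFDN5. For CDKN1A they were 213 and 313 in siControl and 187 and 258 in those labelled siPFDN5. The libraries differed in size, so these intronic values rest on the scaling of intron counts. Both called members overlap other genes. Neither call held in any fit that left out 1 library other than those of siControl after serum. Without siControl after serum replicate 2, more members were called. With the exon scaling used for both kinds of count, the median difference over all genes was 0.23 before serum and -0.75 after it, and 15 members were lower in introns after serum.

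**Figure D5:**
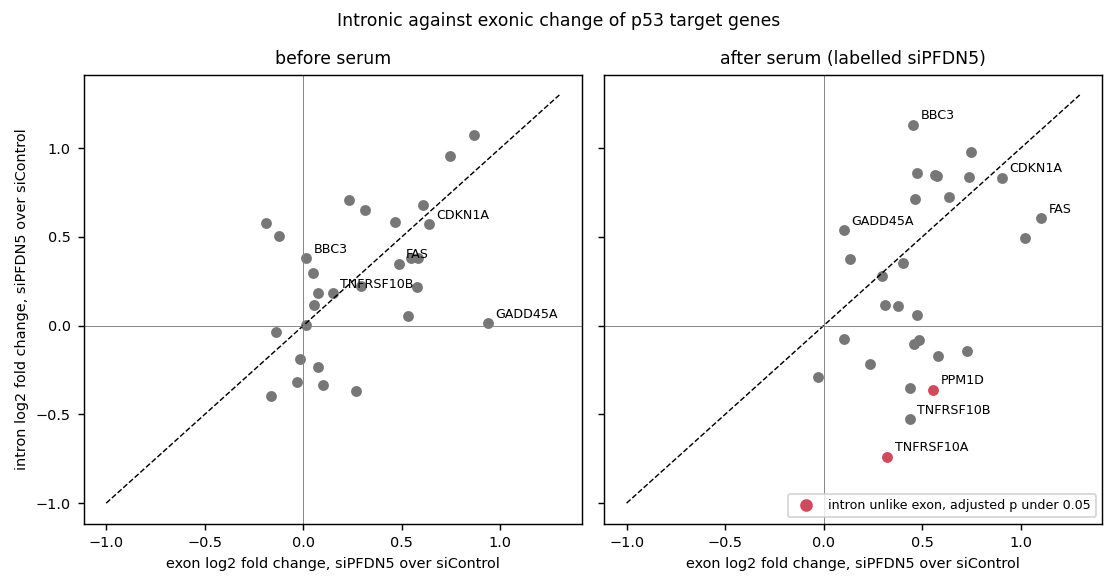
Log2 fold change in siPFDN5 over siControl of intronic counts (vertical) against that of exonic counts (horizontal) for each tested member, before serum (left) and after it (right, libraries labelled siPFDN5). The dashed line marks equal change. TNFRSF10A and PPM1D (red) are the 2 members whose intronic and exonic changes differed, both with intronic values below 0.

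With serum, the intronic change of GDF15 in siControl lay below its exonic one (-1.18, SE 0.23, adjusted p 0.0152), 1 member where 5.39% of genes were called. That count was 0 without either siControl library before serum and 9 without siControl after serum replicate 2. From siPFDN5 before serum to the libraries with that label after it, 2 members had the more positive change in introns and 6 in exons, where 24.8% of genes were called. GADD45A introns rose by 2.35 and its exons by 1.08 (difference 1.31, SE 0.25, adjusted p 0.00845), with both intron values after serum (17.2 and 18.0 CPM) above both before it. POLH had a difference of 0.92. TP53INP1 (-1.39), GDF15 (-1.33), TNFRSF10B (-1.14), CYFIP2 (-0.89), MDM2 (-0.79) and PPM1D (-0.78) had the more negative intronic change. With the exon scaling used for both kinds of count, the median difference over all genes in this comparison was -0.82, against 0.03. The sizes of these differences therefore rest on the scaling. The count of 8 was 1 without siPFDN5 before serum replicate 1, and 0 without replicate 2 of that group or either library labelled siPFDN5 after serum. It was 16 without either siControl library after serum. The difference of these responses between siPFDN5 and siControl was called for 0 members (0.0059% of genes, 11 members unadjusted). Under siPFDN2 the intron and exon changes differed for 0 members before (0%) and after serum (0%), with 1 and 0 unadjusted.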

How the data were processed

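RNA was sequenced from 12 HCT116 libraries in 6 groups. Per the file headers, the authors counted read pairs per gene with featureCounts 1.5.2 on Ensembl 87 (GRCh38), without strand and giving a pair to every gene it overlapped, and they deposited raw counts over exons and over gene bodies. The submitters' processing notes also name HISAT2 0.12.2, kallisto 0.43 and GRCh38.p7. The deposited per-sample transcript values were read as estimated counts, from their size. Each deposited table held 6 further columns that were not used here. Symbols came from GENCODE 29, which matched 57447 genes.

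Members were tested with edgeR 4.0.16 (quasi-likelihood, TMM scaling, low counts removed by filterByExpr) in R 4.3.3, with Benjamini-Hochberg adjustment over all genes tested and a threshold of 0.05 on the adjusted p. Intron counts were gene-body minus exon counts, and the intron-by-group term was tested with the library as a block. DESeq2 1.42.0, library size alone, no filter, gene-body counts, transcript sums (rounded), a replicate block, removal of a GC trend and leaving out each library were alternatives. The fits were tested on simulated data. Figures used Python 3.11.15 and matplotlib 3.10.9.

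The members, the other lists and the 8-library fit were chosen with earlier results of these data known. The share of calls among genes with a log2 CPM of at least 3 was added after the data were seen. It was taken only for siPFDN5 against siControl, where it lay above the share over all genes tested. Other shares of genes called include genes of lower level, while no tested member was below 10.2 CPM in a library. Full statistics were planned for members past the threshold without overlap between groups, up to 12 per comparison by size. In the text some of these have the log2 fold change alone, and some other members have full statistics. PFDN2 and PFDN5 were given in each knockdown against siControl, and a further gene of that rule is not reported here. Other lists were given by counts with at most 3 called genes named per direction.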

Additional observations from a re-analysis of the deposited data

Results flagged for a closer look

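The change with serum under siPFDN5 differed from that under siControl for 13 members, by a direct test of the difference in edgeR's 8-library fit. PFDN5 itself was not called lower in the libraries labelled siPFDN5 after serum. The difference, siPFDN5 minus siControl on the log2 scale, was 0.88 for PHLDA3, 0.78 for TRIAP1, 0.74 for AEN and 0.62 for FAS. It was 0.49 for TP53I3, 0.49 for FDXR, 0.44 for BBC3 and 0.38 for MDM2. FBXO22 stood at 0.36, DDB2 at 0.33 and PLK2 at 0.32. GADD45A and ZMAT3 differed the other way, by -0.83 and -0.43. With all 12 libraries in the fit 0 of the 29 tested members were called, and 5 had an unadjusted p under 0.05.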

How the results depend on the processing

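With all 12 libraries, siPFDN2 before serum replicate 2 among them, the numbers called were 0 before serum, 0 after serum, 3 for serum in siControl, 6 for serum in siPFDN5 and 0 for the difference of the responses. DESeq2 called 7 members for serum in siPFDN2, and 9 before and 5 after serum for siPFDN5 against siPFDN2. Shares of all genes called are not given beside the counts of this section. The counts therefore show only how many members passed under each setting, not whether members passed more often than other genes. Library size alone gave 7 for the difference and 0 for siPFDN5 against siPFDN2 after serum. Without a filter the numbers were 3 for siPFDN2 before serum, 13 for serum in siPFDN2, and 8 and 5 for siPFDN5 against siPFDN2. With the GC trend removed they were 1, 12, 16 and 16. For intron against exon, exon factors for both kinds of count gave 15 after serum, 0 for serum in siControl and 21 for serum in siPFDN5, and genes that overlap no other, among which the members called after serum are not, gave 0, 0 and 1, with 1 for the difference. The cause was not tested. The members followed across alternatives in the siPFDN5 and siControl exon comparisons, up to 12 per comparison, did not reverse under those run. Several were weaker in many of the 16 alternatives. For the difference of responses DDB2 was weaker in 11, FBXO22 in 10, ZMAT3 in 9, and MDM2 and BBC3 in 8. TP53I3 was weaker in 7, FDXR in 4, GADD45A, TRIAP1 and FAS in 2, and PHLDA3 and AEN in 1. For serum in siControl SESN2 was weaker in 11, FDXR in 8 and MDM2 in 3, and the others in fewer. Single members in the siPFDN2 and the intron comparisons were not followed across alternatives.

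Leaving out 1 library gave 5 to 15 members before serum, 22 to 25 after it, 9 to 14 and 14 to 21 for serum in siControl and siPFDN5, and 2 to 17 for the difference. It gave 0 to 23 and 0 to 2 for siPFDN2 before and after serum, 2 to 24 for serum in siPFDN2, 0 to 21 for its difference, and 0 to 22 and 0 to 23 for siPFDN5 against siPFDN2. The values 23, 24, 21 and 22 came without siPFDN2 before serum replicate 1, which leaves that group the library with the GC trend. Without replicate 2 they were 1, 8, 0 and 14. The last range reached 23 without either. For intron against exon the ranges were 0 to 4, 0 to 13, 0 to 9, 0 to 16 and 0 to 15, and 0 to 1 and 0 to 0 for siPFDN2.

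Same-numbered libraries of siPFDN5 and siControl had deviations that correlated at -0.14 before and -0.322 after serum. Over all pairs of groups the correlation ran from -0.325 to 0.631, so not every pair was above 0 and the numbers were not taken to pair the libraries. With the replicate block, 12, 24, 12, 16 and 10 members were called in the siPFDN5 and siControl comparisons, and siPFDN5 against siPFDN2 after serum fell from 1 to 0. With 2 libraries per group, each left-out fit assumes that the lone library varies like the other groups.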
